A study of Rattus norvegicus with 23 samples.

Results

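The comparison set sperm of rats that breathed 0.4 ppm ozone, an oxidant air pollutant, against sperm of rats that breathed filtered air. Its members were the 15 libraries whose treatment label reads Air (n = 7) or 0.4 ppm ozone (n = 8), of 23 libraries in the series. All were male Long-Evans rats, an outbred strain with no genetic change named, and each library is 1 rat's mature sperm from the cauda, the storage end of the epididymis. Exposures took place in inhalation chambers and lasted 4 h each, with 3 in week 1 and 2 in week 2, at a chamber mean of 0.401 ppm. The labels give no age, and the design text names 8 rats per group where 7 air libraries were analysed here. The labels put the RNA integrity number of every sample between 2 and 4, with no value per rat. In each of the 4 deposited tables a value is a read signal that the authors scaled to make libraries comparable within that table, called the normalised value here.

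Mature sperm are nearly silent in transcription, and their small RNA is a mixture of what spermatogenesis left behind and what the epididymal lining passed to them in vesicles. miRNAs are short guides that find target mRNAs through a seed near their 5′ end, and miRNAs that share a seed can share targets. Fragments of mature tRNAs, mostly from the 5′ side, make up much of the small RNA of cauda sperm, while piRNAs guard germ cells against transposons and are made mainly in the testis.

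No feature of any of the 4 tables passed the test at 0.4 ppm. limma, adjusted over each table at 0.05, called 0 of 407 miRNAs (0%) and 0 of 273 tRNA rows (0%). Of 30676 piRNA rows it called 0 (0%), and of 617 Ensembl transcripts likewise 0 (0%). At an unadjusted p under 0.05 limma gave 22 miRNAs (5.41%), of which 11 were higher (2.7%) and 11 lower (2.7%). It gave 16 tRNA rows (5.86%), with 6 higher (2.2%) and 10 lower (3.66%), and 1417 piRNA rows (4.62%), with 522 higher (1.7%) and 895 lower (2.92%). Among transcripts there were 19 (3.08%), with 12 higher (1.94%) and 7 lower (1.13%). edgeR and DESeq2, run on whole miRNA reads recovered from the table, called 0 miRNAs as well, with 26 and 31 at an unadjusted p under 0.05, and an exact Wilcoxon test called 0 with 24. In the tRNA, piRNA and Ensembl tables the exact Wilcoxon test also called 0, with 7, 1341 and 15 at an unadjusted p under 0.05.

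Sequences are shown first for the miRNAs that the comparison turns on. They are mature sequences of RefSeq on build GRCr8, which holds an entry for 396 of the 425 miRNA rows, and capitals mark the seed, bases 2 to 8 from the 5′ end. The submitters' processing notes name another build, rn6. The first set is the seed group that led the sperm pool, whose 5p members share the seed GGCAGUG.
miR-34c-5p: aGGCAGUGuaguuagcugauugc
miR-34b-5p: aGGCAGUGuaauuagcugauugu
miR-449a-5p: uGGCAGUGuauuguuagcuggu
The second set is a pair of the miR-200 family made from neighbouring hairpins, at chr4:159209540-159209561 and chr4:159209969-159209989 on the minus strand, whose seeds differ.
miR-141-3p: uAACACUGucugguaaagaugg
miR-200c-3p: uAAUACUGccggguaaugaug
The third set shows why some rows of the miRNA table are uncertain: the second of each pair is, over 21 or 22 bases, the reverse complement of the first.
let-7a-5p: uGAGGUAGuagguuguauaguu
miR-3596a: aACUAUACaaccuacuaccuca
miR-130a-3p: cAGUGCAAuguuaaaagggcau
miR-3590-5p: uGCCCUUUuaacauugcacug
miR-125b-5p: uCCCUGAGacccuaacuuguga
miR-3588: uCACAAGUuagggucucaggga

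Among tested miRNAs with a sequence, 13 pairs had at least 16 consecutive bases of one as the reverse complement of the other. In 5 of those pairs the 2 rows held identical values in all 23 libraries. let-7a-5p and miR-3596a, complementary over 22 bases, were one such pair, so the table does not tell a let-7a read from a read of its opposite strand. The other 4 identical pairs were miR-181a-1-3p with miR-3570, miR-210-3p with miR-3574, miR-378a-5p with miR-3557-3p, and miR-382-3p with miR-3592. A sixth repeated row, miR-539-5p, held the values of miR-3576. Together the repeated rows held 1.32% to 3.94% of the miRNA table over the 15 libraries. For miR-3588 and miR-3590-5p the values differed from those of their complements, and without a stated use of strand in the counting their reads cannot be assigned to a strand. Both are among the miRNAs with the smallest unadjusted p described below and are therefore uncertain.

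Depth differed between libraries and has to be read beside every result. Depth here means a library's recovered miRNA read total, which also defines the shallowest libraries and the depth covariate for the other 3 tables. Reads were not recovered for those tables. A low total from few reads and one from a small miRNA fraction cannot be told apart. Recovered miRNA reads ran from 394925 to 1199769 in air, with a median of 660822, and from 251123 to 1286612 at 0.4 ppm, with a median of 504686 (difference of means not past the test, exact permutation p = 0.379, adjusted p = 0.81 over 15 library measures). The 3 libraries with the fewest reads, 0.4 ppm replicates 6 and 5 and air replicate 6, also stood apart in composition, though not each in the same table. For miRNAs, replicate 5 at 0.4 ppm lay at 20.3 on the first principal component and air replicate 6 at 7.27, where the other rats of their groups reached at most 5.90 and 0.593, while replicate 6 at 0.4 ppm lay at 1.21. For tRNA rows the 3 libraries had the 3 highest scores on that component, at 11.1, 9.09 and 5.05. Values without these 3 libraries are given beside many of the lists. Read totals and shares count a repeated row each time it is listed. The part of depth in the results was not tested beyond these values and a fit with depth as a covariate.

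The miRNAs that dominated air sperm also dominated sperm at 0.4 ppm. Ranked by group mean, 9 of the top 10 miRNAs of each group were the same, and 49 of the top 50. miR-34c-5p, a miRNA of meiotic and post-meiotic germ cells, was first in both, followed by miR-34b-3p and miR-449a-5p. Among the abundant miRNAs ranks moved below these: miR-25-3p went from rank 7 in air to rank 12 at 0.4 ppm, and miR-143-3p went from rank 16 to rank 9. The top 10 miRNAs of a library made up 62.7% ± 1.89 of the table in air (SD, n = 7) and 59.7% ± 1.98 at 0.4 ppm (n = 8). The groups overlapped, and the difference did not pass adjustment over the 15 library measures (two-sided exact permutation p = 0.0126, adjusted p = 0.189). With the repeated rows removed the shares were 63.8% ± 1.70 and 61.0% ± 2.16 (exact permutation p = 0.0204, adjusted p = 0.305).

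The miR-34/miR-449 family, the main germ-cell miRNA family of sperm, held a share of the miRNA table from 30.8% through a median of 43.9% to 47.9% in air, and from 23.6% through 36.2% to 44.3% at 0.4 ppm. The groups overlapped: the highest rat at 0.4 ppm lay above 4 of the 7 air rats, and 2 rats at 0.4 ppm lay below the lowest air rat. The 3 lowest shares of all 15 rats were those of the 3 libraries with the fewest reads, at 23.6%, 29.7% and 30.8%. miR-34c-5p itself had normalised values of 126048, 173231 and 189608 in air (lowest, median, highest) and 90352, 124228 and 162360 at 0.4 ppm. Its log2 fold change was -0.44 ± 0.18 (SE, 95% interval -0.79 to -0.08), which did not pass over the table (limma adjusted p = 0.784). Without the 3 shallowest libraries it was -0.37, and with depth as a covariate -0.29.

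None of the 7 measured rows of the family had a positive fold change, and their median was -0.38, where the median over all 407 miRNAs was -0.02 and 48.2% of them were positive (0.07 and 58.2% when every library was scaled to the same total). Within the shared seed GGCAGUG the fold changes were unequal. miR-449a-5p, from another hairpin cluster, had -0.38 ± 0.19 (SE) and miR-34b-5p -0.44 ± 0.29, while the rare miR-34a-5p, the member best known from p53 signalling, had -0.01 ± 0.24 at a mean of 32.7 ± 9.98 in air (SD, n = 7) and 32.1 ± 7.63 at 0.4 ppm (n = 8). The opposite arms of the miR-34b and miR-34c hairpins, which carry another seed, had -0.20 ± 0.17 for miR-34b-3p and -0.40 ± 0.27 for miR-34c-3p. The family median was -0.23 without the 3 shallowest libraries, with 1 of 7 positive, and with depth as a covariate it was -0.11. Scaling to equal totals gave -0.26.

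**Figure D1:**
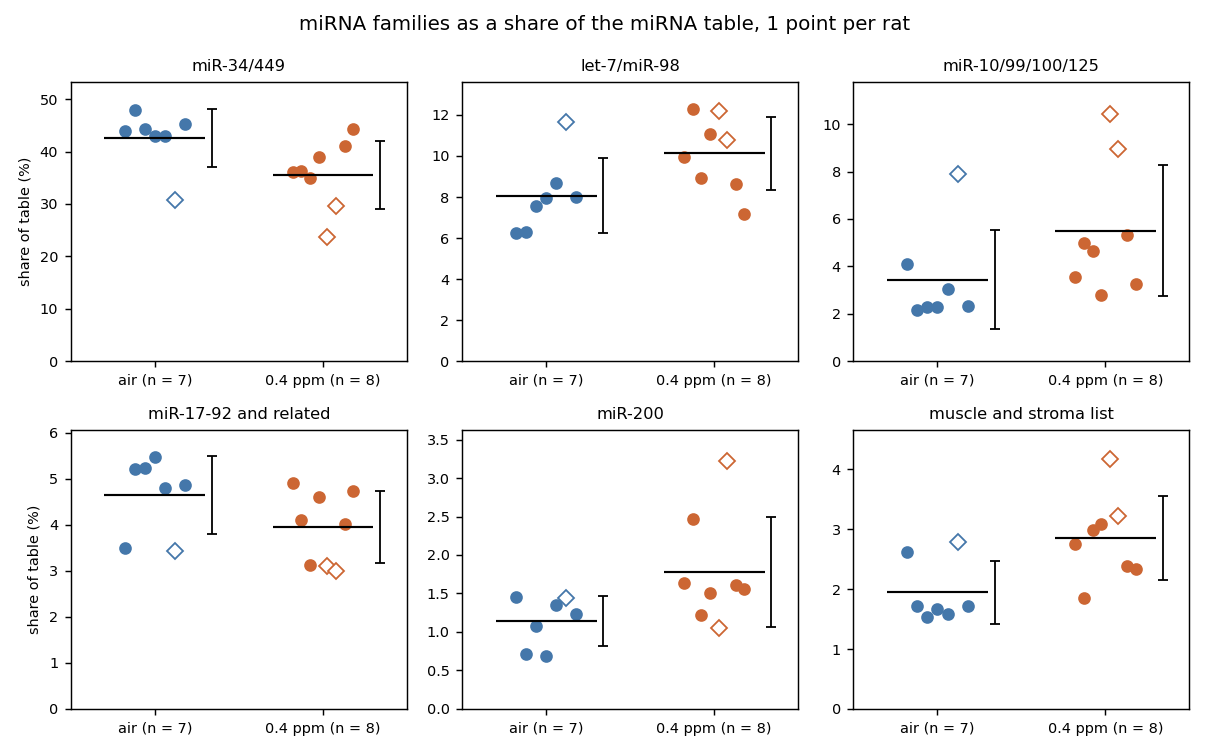
Share of the miRNA table (%, vertical axis) held by 6 miRNA lists in each rat, air in blue and 0.4 ppm in orange, with the mean as a line and the SD as a bar beside the points. Open diamonds are the 3 libraries with the fewest reads: they hold the 3 lowest shares of the miR-34/miR-449 family (23.6% to 30.8%) and the 3 highest of the miR-10 family (7.91% to 10.4%).

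The miR-200 family, which marks epithelial cells such as the epididymal lining, stood higher in most rats at 0.4 ppm. Its share of the table was 0.688%, 1.23% and 1.45% in air (lowest, median, highest) and 1.06%, 1.58% and 3.23% at 0.4 ppm. Of the 8 rats at 0.4 ppm, 6 lay above the highest air rat, and the other 2 lay inside the air range. All 8 measured members were positive, at a median of 0.53, though none passed over the table. Without the 3 shallowest libraries 8 of 8 were still positive with a median of 0.41, and over all the other alternatives the median lay between 0.40 and 0.65.

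Members of the miR-200 family differed among themselves. miR-429 had normalised values of 236.5, 347.3 and 570.8 in air and 278.4, 569.3 and 1024 at 0.4 ppm, so 4 of 8 rats were above the air maximum. Its log2 fold change of 0.72 ± 0.25 (SE, 95% interval 0.22 to 1.22) had the smallest unadjusted p of all miRNAs (limma adjusted p = 0.784). It passed where libraries were weighted by their quality (limma adjusted p = 0.0468). miR-141-3p had 1512, 2984 and 5541 in air and 3104, 4824 and 9112 at 0.4 ppm, a log2 fold change of 0.67 ± 0.25 (limma adjusted p = 0.784). miR-200c-3p, made next to miR-141, had 393.0, 488.2 and 581.3 in air against a median of 489.1 and a highest value of 824.1 at 0.4 ppm, a log2 fold change of 0.05 ± 0.20. miR-200b-3p had 0.57 ± 0.26 and miR-200a-3p 0.37 ± 0.28 on the same scale. The difference between miR-141-3p and miR-200c-3p was not tested.

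Other lists of cell types outside the germ line gave the following. The muscle and stroma list, led by the smooth-muscle miRNA miR-143-3p, held 1.54%, 1.72% and 2.79% of the table in air and 1.85%, 2.87% and 4.17% at 0.4 ppm, with 4 of 4 tested members positive and a median of 0.40. Nearly all of that share was miR-143-3p, with means of 1.94% in air and 2.84% at 0.4 ppm, of 1.95% and 2.85%. Of the tested members, miR-143-3p, miR-145-5p and miR-145-3p lie close together on chr18. Without the 3 shallowest libraries the list median was 0.42, but miR-145-5p went from 0.29 to 0.06. The share of the leukocyte list was mostly miR-146b-5p, with means of 2.70% in air and 3.05% at 0.4 ppm, of 2.88% and 3.30%. The list held 2.09%, 2.70% and 4.81% against 2.14%, 2.63% and 6.43%, with 3 of 9 positive and a median of -0.04, or 5 of 9 and 0.03 without the shallow libraries. The erythroid list, led by miR-451-5p, held 0.0273% to 0.0895% in air and 0.0107% to 0.206% at 0.4 ppm, with 3 of 4 positive and a median of 0.05, or 4 of 4 and 0.31 without them. No member of these lists passed. At the mRNA level the defining markers of sperm, leukocytes and erythrocytes had no row in the Ensembl table (0 measured in each list), and of the epididymal markers only Lcn5, a lipocalin of the epididymal lining, was measured, with a log2 fold change of -0.10 ± 0.30. In whole samples, fewer cells of a type and less RNA per cell cannot be told apart, and the part of such cells in the germ-cell shares was not tested.

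The family of miR-10, miR-99, miR-100 and miR-125, whose members lie in or near Hox and let-7 clusters, had 13 of 14 members positive with a median of 0.39. Its share was 2.15%, 2.31% and 7.91% in air and 2.81%, 4.82% and 10.4% at 0.4 ppm. The 3 shallowest libraries held the 3 highest shares, and without them the median was 0.34 with 13 of 14 positive. miR-10a-5p led it, with values of 11622, 12902 and 49511 in air against 13433, 25535 and 71043. Its log2 fold change was 0.61 with a 95% interval from -0.12 to 1.34, which reaches past a 2-fold rise, and with depth as a covariate it was 0.37. miR-99b-5p had 0.34 ± 0.32 (SE), miR-125a-5p 0.39 ± 0.25 and miR-99a-5p 0.39 ± 0.21.

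let-7 guides, which hold cells in the differentiated state, gave a mixed picture. The 17 measured let-7 and miR-98 rows split into 10 positive and 7 negative with a median of 0.06 (12 positive and 0.20 without the 3 shallowest libraries), and the 9 guides with the shared seed GAGGUAG into 8 and 1 with a median of 0.23. With depth as a covariate that median was 0.03, and without the 3 shallowest libraries it was 0.32. let-7c-5p had a log2 fold change of 0.40 ± 0.32 (SE), or 0.06 with depth as a covariate. On the same scale let-7f-5p had 0.23 ± 0.21, let-7a-5p 0.13 ± 0.24, let-7i-5p 0.02 ± 0.24 and let-7g-5p -0.07 ± 0.16. The family's share ran from 6.27% to 11.7% in air and from 7.19% to 12.3% at 0.4 ppm, with 2 rats above the air maximum.

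The miR-17-92 and related clusters, which promote proliferation and are used by dividing germ cells, had 1 of 19 tested members positive and a median of -0.27. Their share was 3.43%, 4.87% and 5.47% in air and 2.99%, 4.07% and 4.92% at 0.4 ppm, with 3 rats below the air minimum. The most abundant members come from the cluster of miR-106b, miR-93 and miR-25 on chr12. miR-25-3p had values of 12386, 20862 and 24201 in air and 8999, 14761 and 18898 at 0.4 ppm, and a log2 fold change of -0.39 ± 0.18 (SE). miR-93-5p had -0.35 ± 0.19 and miR-106b-3p -0.38 ± 0.20. miR-92a-3p and miR-19b-3p, which the miR-17-92 transcript holds, had -0.03 ± 0.23 and -0.27 ± 0.31. Each of these has 2 loci in the genome, so its reads cannot be assigned to that transcript alone. All 5 members with the seed AAAGUGC were negative with a median of -0.31. With the 3 shallowest libraries left out 4 of 19 members were positive and the median was -0.15, and with scaling to equal totals 4 of 19 and -0.18. Depth as a covariate moved the list most, to a median of -0.09, with the seed AAAGUGC at -0.12 and miR-19b-3p at 0.08.

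Some of the remaining lists lay close to the table and others did not. The X-linked miR-506 family, expressed in germ cells of the testis, had 11 of 21 members positive, a median of 0.01 and a share of 2.32% ± 0.21 in air (SD, n = 7) against 2.35% ± 0.12 (n = 8). The imprinted Dlk1-Dio3 cluster had 14 of 33 positive with a median of -0.02. miR-30 and miR-15/miR-16 each had 2 of 9 positive, with medians of -0.17 and -0.14, but their mean shares were not lower. miR-30 held 7.34% ± 0.71 in air (SD, n = 7) and 8.11% ± 1.16 at 0.4 ppm (n = 8), with 4 rats above the air maximum. Its most abundant member, miR-30a-5p, had a log2 fold change of 0.12. With equal library totals 4 of the 9 miR-30 rows were positive with a median of -0.05. miR-15/miR-16 held 2.71% ± 0.34 in air and 2.78% ± 0.62 at 0.4 ppm. The miR-183/miR-96/miR-182 cluster had both measured rows positive at a median of 0.52, or 0.41 with depth as a covariate, and 5 of 8 rats at 0.4 ppm lay above the air maximum of its share. It was led by miR-182 at 2017 ± 749 in air (SD, n = 7) and 3225 ± 1461 at 0.4 ppm (n = 8). Among miRNAs tied to redox state and hypoxia 12 of 17 were positive with a median of 0.15, or 14 of 17 and 0.23 without the shallow libraries, and for their share too 5 of 8 rats lay above the air maximum. In that list the arms of one hairpin differed: miR-21-5p, a common stress-responsive guide, had -0.09 ± 0.20 (SE) at 5948 ± 1040 in air (SD, n = 7), while its rare partner miR-21-3p had 1.11 ± 0.40 at 11.8 ± 7.15. For miR-21-3p the air rats ranged from 2.12 to 23.4 and the rats at 0.4 ppm from 8.46 to 43.1, so the groups overlapped.

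The miRNAs that were lower with the smallest unadjusted p-values were uncertain or rare, miR-34c-5p apart. miR-3590-5p, the complement of miR-130a-3p, had 506.4, 963.0 and 1339 in air and 147.7, 556.8 and 996.1 at 0.4 ppm (log2 fold change -0.84 ± 0.29, SE), whereas miR-130a-3p had -0.26 ± 0.20. miR-136-3p, an imprinted Dlk1-Dio3 miRNA, stood at 14.5 ± 4.58 in air (SD, n = 7) and 8.21 ± 6.31 at 0.4 ppm (n = 8), and miR-3559-5p at 7.39 ± 3.72 and 3.32 ± 2.27. miR-935 stood at 32.2 ± 6.49 and 20.3 ± 8.48. Among those that were higher, miR-195-5p, of the miR-15/miR-16 seed group, had 0.72 ± 0.29 (SE) and miR-3588, the complement of miR-125b-5p, 0.60 ± 0.25, with miR-125b-5p at 0.39 ± 0.26. The limma adjusted p was 0.784 for each of the 10 miRNAs with the smallest unadjusted p.

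**Figure D2:**
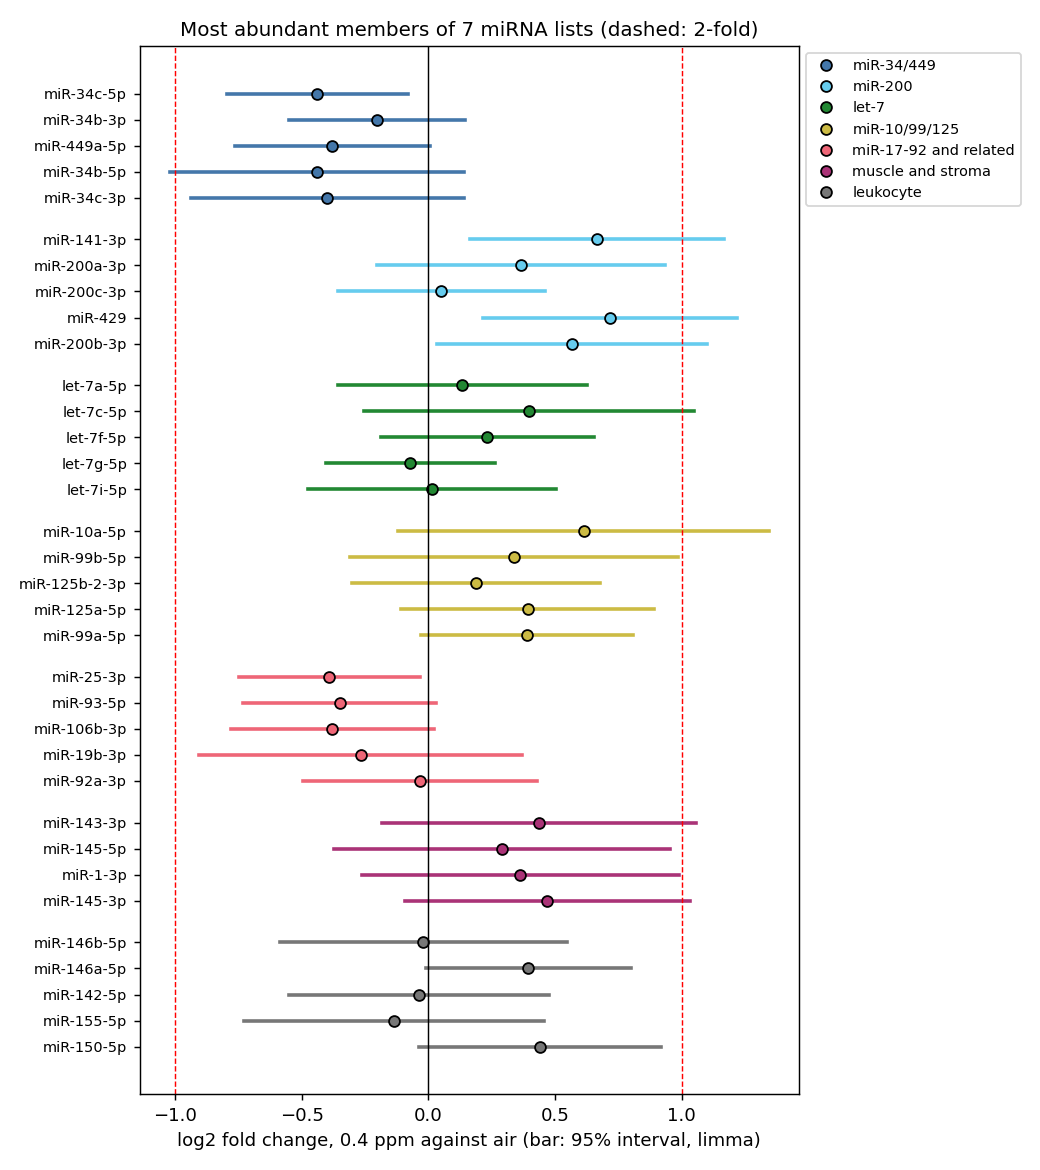
Log2 fold change at 0.4 ppm against air (horizontal axis, points) with its 95% limma interval (bars) for the most abundant tested members of 7 miRNA lists, and dashed lines at a 2-fold change. The miR-34/miR-449 points lie left of 0 and the miR-200 points right of it, from 0.05 for miR-200c-3p to 0.72 for miR-429.

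The width of these intervals says how much change the data would still allow. Among the 51 miRNAs with a mean normalised value of 1000 or more, 44 had a 95% interval wholly inside a 2-fold change in either direction, and among the 72 between 100 and 1000, 63 did. None of these 123 miRNAs had a fitted change beyond 2-fold. Within a 1.5-fold change the interval lay for 16 of the 51. For rare miRNAs the data say less: of 172 with a mean under 10, 51 had an interval inside 2-fold. In all, 235 of 407 miRNAs (57.7%) had such an interval. It covered 242 of 273 tRNA rows (88.6%), 307 of 617 transcripts (49.8%) and 10813 of 30676 piRNA rows (35.2%). With repeated piRNA rows removed the last share was 21.0%. A larger pseudocount, which pulls low features toward 0, raised these shares.

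tRNA reads gave the most precise table as deposited, with 88.6% of intervals inside 2-fold. With equal library totals, which lower piRNA values, 74.7% of tRNA rows and 84.3% of piRNA rows had such an interval. Reads assigned to Gly-GCC, the source of the abundant 5′ glycine fragments of sperm, held 28.3%, 31.9% and 38.7% of the tRNA table in air and 26.8%, 32.6% and 39.2% at 0.4 ppm. The groups overlapped almost wholly, 4 of 11 rows were positive, and their median was -0.03, against -0.01 and 48.0% positive over all tRNA rows. Without the 3 shallowest libraries 7 of 11 were positive with a median of 0.16, so the group had no steady direction. The row tRNA-Gly-GCC-1-5 had a log2 fold change of -0.03 with a 95% interval from -0.56 to 0.49. Near-identical tRNA genes share reads, so the rows of an anticodon are not separate measurements.

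Leu-CAA, Ser-AGA and Ser-TGA had lower shares in part of the rats, which did not extend to every leucine group. Leu-CAA, the largest group after Gly-GCC, held 12.6%, 17.3% and 23.6% in air and 9.27%, 14.6% and 18.6% at 0.4 ppm, and its 3 rows had a median of -0.36. The lowest air rat and the 2 lowest rats at 0.4 ppm were the 3 shallowest libraries, and without these the median was -0.21. Leu-AAG held 2.85% ± 0.40 in air (SD, n = 7) and 2.60% ± 0.60 at 0.4 ppm (n = 8), with 4 rats below the air minimum and 2 above the air maximum. None of its 6 rows was positive, with a median of -0.17, or -0.14 without the 3 shallowest libraries. Leu-TAG held 2.32% ± 0.66 in air (SD, n = 7) and 2.19% ± 0.67 at 0.4 ppm (n = 8) with a median of 0.00, and the rare Leu-CAG had 7 of 9 rows positive with a median of 0.18. Ser-AGA held 1.23%, 1.44% and 2.12% against 0.720%, 1.21% and 2.44%, so that 4 rats at 0.4 ppm lay below the air minimum and 1 above the air maximum. None of its 7 rows was positive, and their median was -0.55, or -0.28 without the 3 shallowest libraries. Its 2 most abundant rows, tRNA-Ser-AGA-1-3 and tRNA-Ser-AGA-5-1, had smaller changes than the median, at -0.28 and -0.30. Without those libraries they had -0.14 and -0.16. The row tRNA-Ser-AGA-4-1 had the third smallest unadjusted p of the table, with values of 150.7, 210.1 and 301.1 in air against 59.7, 149.0 and 253.9 (log2 fold change -0.62 ± 0.23, SE, limma adjusted p = 0.627). Ser-TGA held 1.13% ± 0.30 in air (SD, n = 7) and 1.04% ± 0.51 at 0.4 ppm (n = 8). As for Ser-AGA, 4 rats lay below the air minimum and 1 above the air maximum. Of its 4 rows 2 were positive with a median of -0.11. Its row tRNA-Ser-TGA-1-1 had -0.58, or -0.35 without the 3 shallowest libraries. Ser-GCT had 1 of 9 rows positive and a median of -0.10, or -0.03 without those libraries.

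Shares of the anticodon groups Val-AAC, Val-CAC and Glu-CTC were higher on average at 0.4 ppm, while other valine and glutamate groups were not. Val-AAC held 2.45%, 2.62% and 3.54% in air and from 1.94% to 8.10% at 0.4 ppm, with means of 2.81% ± 0.42 (SD, n = 7) and 4.39% ± 2.29 (n = 8). The 2 highest shares, 8.10% and 7.48%, were those of the shallow libraries 0.4 ppm replicates 6 and 5. Its 5 rows were positive with a median of 0.30, and 0.12 without the 3 shallowest libraries. The row tRNA-Val-AAC-1-1 had 3207, 3990 and 5078 in air against 3521, 5225 and 11687, a log2 fold change of 0.51 ± 0.26 (SE), and 0.27 without those libraries. Val-CAC had 6 of 6 rows positive with a median of 0.26, which was 0.08 without the 3 shallowest libraries and 0.10 with depth as a covariate. Glu-CTC, which gives another abundant 5′ fragment of sperm, held 5.43%, 6.21% and 7.59% against 6.38%, 7.41% and 9.98%, with 8 of 9 rows positive and a median of 0.29, and 9 of 9 and 0.49 without the shallowest libraries. Its 2 most abundant rows, tRNA-Glu-CTC-1-6 and tRNA-Glu-CTC-1-7, had log2 fold changes of 0.02 ± 0.27 and -0.00 ± 0.27, below the median of the group. Glu-TTC, the other glutamate anticodon, held 2.22%, 4.36% and 5.66% in air and 1.99%, 3.03% and 4.88% at 0.4 ppm. By row it was not lower, with 6 of 10 positive and a median of 0.08, or 0.11 without the 3 shallowest libraries. Its most abundant rows, tRNA-Glu-TTC-4-3 and tRNA-Glu-TTC-4-1, had -0.35 ± 0.31 and -0.33 ± 0.31 (SE). Val-TAC, a rare group, had none of 3 rows positive and a median of -0.09.

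**Figure D3:**
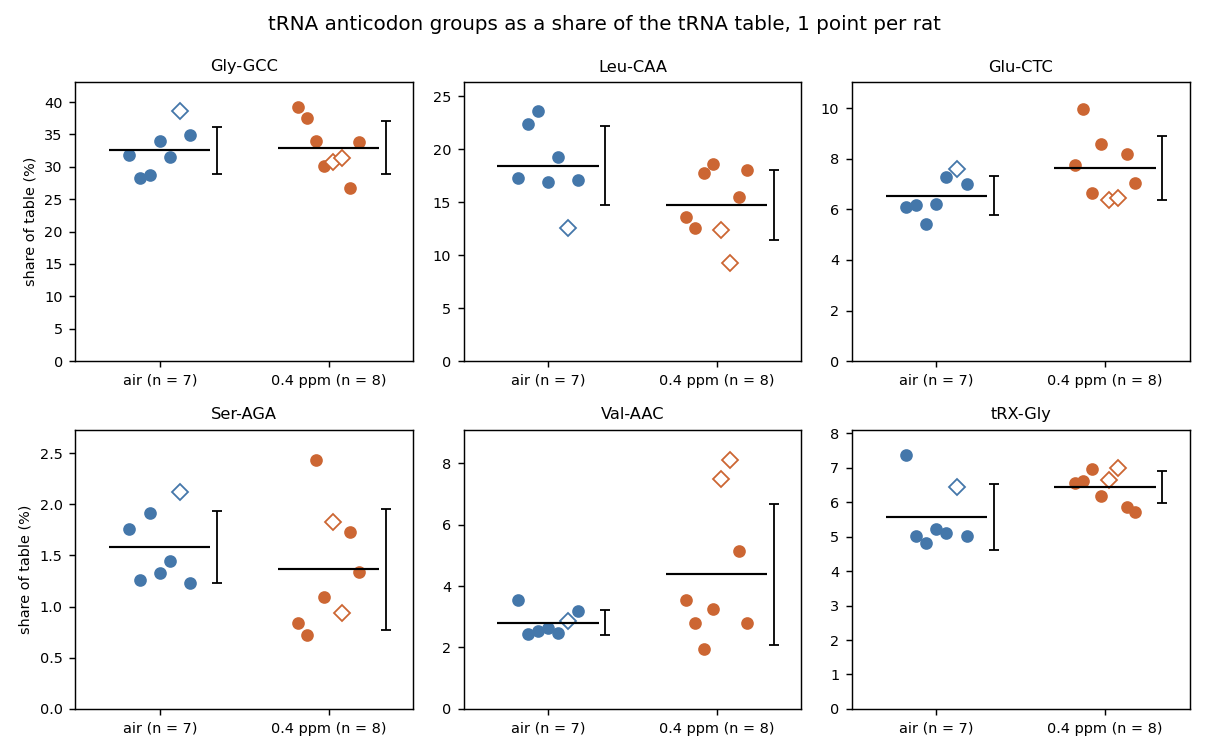
Share of the tRNA table (%, vertical axis) held by 6 anticodon groups in each rat, air in blue and 0.4 ppm in orange, with the mean as a line and the SD as a bar beside the points, and open diamonds for the 3 libraries with the fewest reads. Gly-GCC overlaps almost wholly, and the 2 highest Val-AAC shares, 8.10% and 7.48%, are open diamonds.

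Rows named tRX, tRNA-like genes of low confidence, held 6.60%, 6.79% and 9.52% of the table in air and 7.35%, 8.38% and 9.21% at 0.4 ppm, with 18 of 34 rows positive and a median of 0.05, or 16 of 34 and -0.04 without the 3 shallowest libraries. Most of that signal was the row tRX-Gly-NNN-90-1, with a log2 fold change of 0.20 ± 0.24 (SE). The rows with the 2 smallest unadjusted p-values were low: tRX-Val-NNN-3-1 ran from 0.937 to 9.11 in air and from 2.24 to 16.2 at 0.4 ppm, and tRNA-Trp-CCA-1-1 from 3.39 to 8.44 and from 6.04 to 27.8 (limma adjusted p = 0.627 for both).

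piRNA rows are sequences of the piRBase v3 catalogue, and 15512 of the 30676 rows repeat an earlier row in every library, which leaves 15164 distinct rows. The 2 groups shared 9 of their top 10 rows. The most abundant row, piR-rno-3104129, held 3.60% ± 0.67 of the table in air (SD, n = 7) and 2.94% ± 1.31 at 0.4 ppm (n = 8), with a log2 fold change of -0.11 ± 0.36 (SE). piR-rno-2129341, the next, held 2.53% ± 0.39 and 3.05% ± 0.64, with 0.54 ± 0.28. Of the 100 most abundant distinct rows 67 had positive fold changes as deposited, with a median of 0.29. That direction depended on the scaling: the sum of a library's values ran from 7859530 to 14386700 in air and from 7971220 to 26946500 at 0.4 ppm, and with equal totals 54 of the 100 were positive with a median of 0.01. Among the 1000 most abundant the same change of scale took the median from 0.27 to -0.01, and over the whole table it took the positive share from 46.8% to 31.3%.

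In 4 piRNA rows (0.013% of those tested), all lower, the values of the groups did not overlap, and 3 of these are distinct. piR-rno-517148 had 5.54, 9.52 and 12.0 in air and 0.0569, 2.33 and 5.45 at 0.4 ppm (log2 fold change -1.69 ± 0.45, SE, limma adjusted p = 0.831). piR-rno-1663369, repeated as piR-rno-1663373, had 6.93, 9.31 and 13.4 against 1.51, 3.58 and 5.37, and piR-rno-1266006 had 3.15, 4.18 and 7.50 against 0.961, 2.06 and 2.73. In the other 3 tables no feature separated the groups (0% of each). Rows with the smallest unadjusted p were as low. piR-rno-227431 had 0.387, 5.35 and 11.4 in air and 0.122, 0.345 and 0.794 at 0.4 ppm (limma adjusted p = 0.134), and it passed without air replicate 2 (limma adjusted p = 4.71e-04). piR-rno-285206 had 6.48 to 19.8 in air, while at 0.4 ppm 7 rats had at most 0.696 and replicate 5 had 15.0. Without that replicate the row passed (limma adjusted p = 0.0333), as did piR-rno-346434, which was higher at 0.4 ppm (limma adjusted p = 0.0089). The depth behind piRNA values is unknown, and with equal library totals the log2 fold change of piR-rno-227431 went from -2.03 to -0.50 with the same pseudocount.

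Ensembl transcripts caught by small RNA reads were led by the mitochondrial row AY172581.24 in both groups. Mitochondrial rows together held 38.4%, 45.9% and 65.2% of that table in air and 23.7%, 43.8% and 57.0% at 0.4 ppm, with 11 of 22 rows positive and a median of -0.00. The mean shares were 49.8% ± 9.60 (SD, n = 7) and 42.3% ± 10.5 (n = 8), and 3 rats at 0.4 ppm lay below the air minimum. AY172581.24 alone held means of 43.9% and 36.3%. Its log2 fold change was -0.24, or -0.02 without the 3 shallowest libraries. The row of Stat2, which carries interferon signals to the nucleus, had normalised values from 4434 to 42979 in air and from 5252 to 37661 at 0.4 ppm, with a log2 fold change of 0.46 ± 0.50 (SE). Transcripts of the olfactory receptor gene Olr1568 and the protocadherin gene Pcdhga7 each had 1 rat at 0.4 ppm far above the rest, at 50546 and 26995. The smallest unadjusted p-values belonged to low transcripts of Srsf4, a splicing factor, with -0.85 ± 0.31, of Pcdh7, a protocadherin, with -1.07 ± 0.39, and of Synpo2, an actin-binding protein, with -1.49 ± 0.55 (SE, limma adjusted p = 0.971 for each). The sources used here do not say where in a transcript these reads lie.

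**Figure D4:**
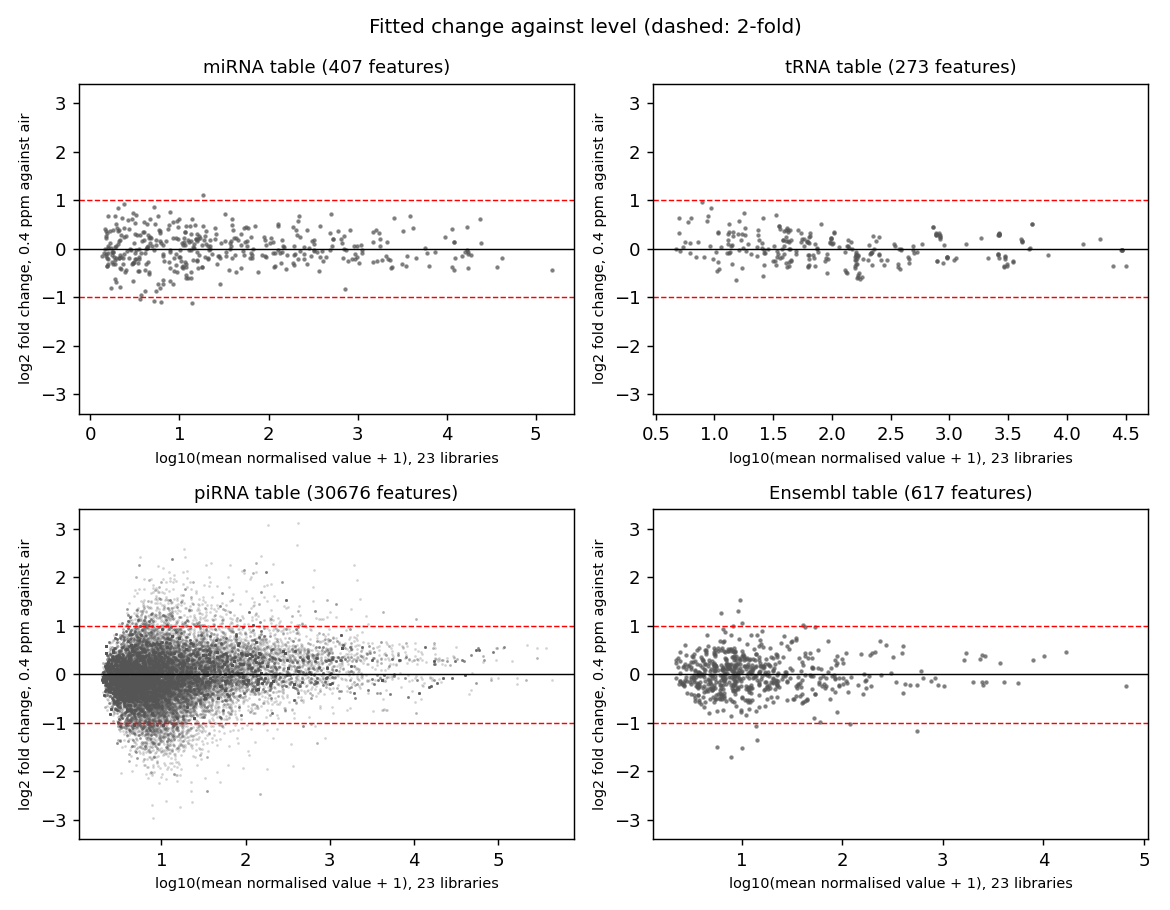
Log2 fold change at 0.4 ppm against air (vertical axis) for every tested feature of the 4 tables, against log10 of its mean normalised value plus 1 over the 23 libraries, with dashed lines at a 2-fold change. The cloud narrows to the right for miRNAs and tRNA rows, and no feature of either table with a mean of 100 or more lies beyond 2-fold.

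Most features had a larger spread between the rats at 0.4 ppm than between the air rats. The SD of log2(value + 1) between rats was larger at 0.4 ppm than in air for 308 of 407 miRNAs (75.7%), with medians of 0.68 and 0.51. For tRNA rows the share was 81.7% (medians 0.53 and 0.35), for piRNAs 72.5% (0.85 and 0.64) and for Ensembl transcripts 69.2% (0.70 and 0.54). Among features with a mean of at least 100 the shares were 83.7%, 82.2%, 87.9% and 90.9% in the same order. These are descriptions without a test, since features of one library vary together and a few libraries can set them.

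The shares without the 3 shallowest libraries, 2 of which are 0.4 ppm rats, were 71.3%, 70.7%, 61.7% and 59.6% in that order. With each rat left out in turn they ran from 67.8% to 80.3%, 74.0% to 86.8%, 63.0% to 75.3% and 61.9% to 74.1%. Rats at 0.8 ppm set against the same air rats, which the 2 comparisons share, gave 66.6%, 68.5%, 65.8% and 65.8%. By family, the SD was larger at 0.4 ppm for 18 of 21 rows of the X-linked miR-506 family, 16 of 19 of the miR-17-92 clusters, 9 of 9 of miR-30 and 11 of 11 Gly-GCC rows, against 8 of 17 of let-7 and 0 of 6 Leu-AAG rows.

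**Figure D5:**
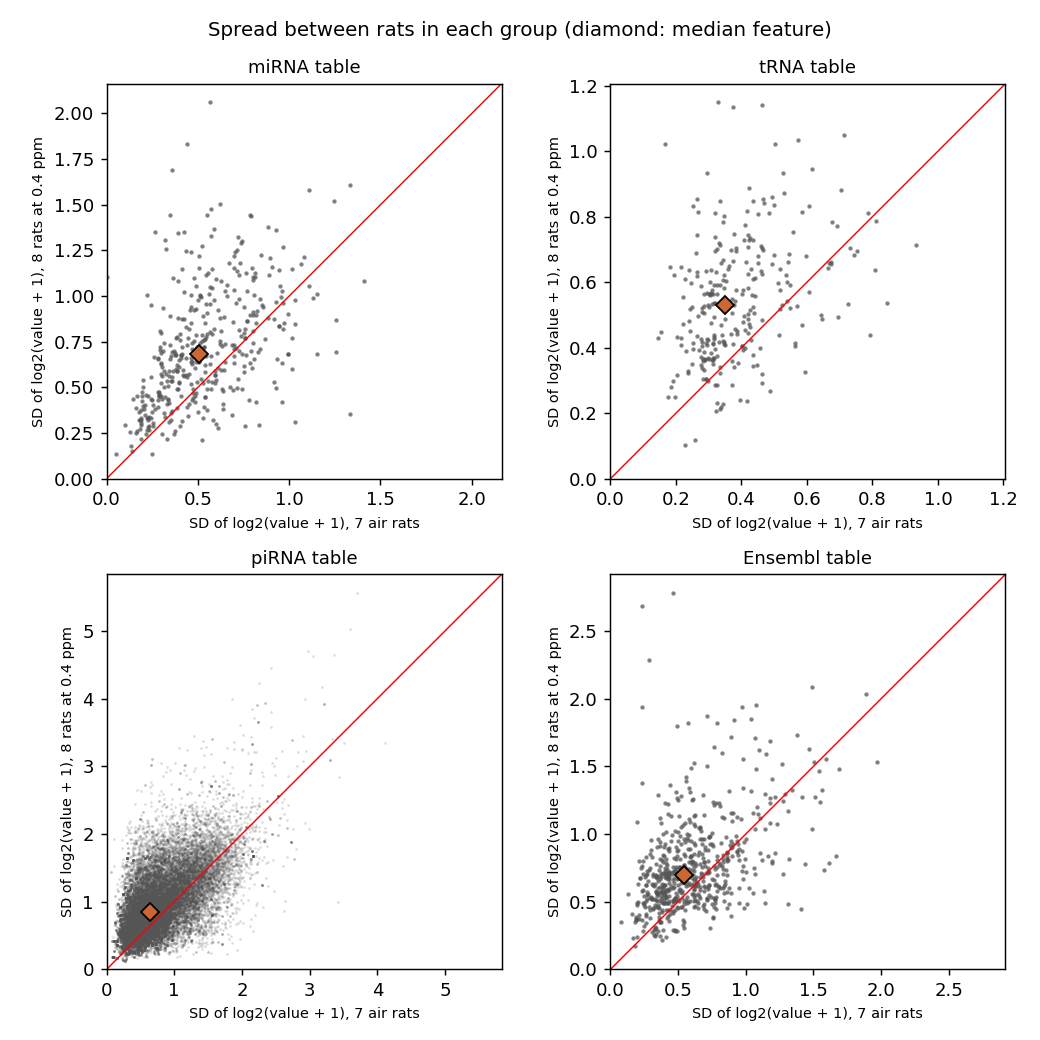
SD of log2(value + 1) between the 8 rats at 0.4 ppm (vertical axis) against that between the 7 air rats (horizontal axis) for each tested feature of the 4 tables, with the line of equal spread and a diamond at the medians. Most points and all 4 diamonds lie above the line, at 0.68 against 0.51 for miRNAs.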

How the data were processed

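Small RNA of cauda sperm from 15 rats (7 air, 8 at 0.4 ppm) was compared. Per the labels' protocols, RNA under 200 nucleotides was isolated, libraries were made with a CleanTag kit and sequenced single-end over 75 cycles. Per the submitters' processing notes, Partek, Bowtie 1.0.0 and build rn6 were used. The way reads were assigned, the use of strand and any length filter: not given in the sources used here. Values in the files are a normalised signal, deposited by the authors and scaled within each table: within a table, all libraries had the same median ratio to its geometric means. Of 168 to 202 low miRNA values checked per library, 100% were whole multiples of 1 step within 0.1, so whole reads were recovered; the depth of the piRNA and Ensembl tables is unknown.

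limma 3.58.1 (R 4.3.3; trend, robust) was fitted to log2(value + 1) over all 23 libraries in 3 groups, for features above 0 in at least 8, with two-sided Benjamini-Hochberg adjustment over each table at 0.05. Fold changes on that scale understate the change of low features. 15 library measures were tested by exact permutation over 6435 relabellings. edgeR 4.0.16 and DESeq2 1.42.0 were run on recovered miRNA reads, and limma was tested on simulated data. Rats are separate animals, so p-values measure the spread between rats.

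The members and lists were chosen with earlier results of these data known, and lists are described by counts and medians without a test. Named features were the 10 (miRNA) or 5 smallest p-values and most abundant features per table, and up to 5 abundant members per miRNA list. Also named were 2 rows per tRNA anticodon group of at least 3 rows. Features called under an alternative alone, or whose groups did not overlap, were added. Anticodon groups gave named rows only at 1% or more of the table in air, a limit chosen after seeing the data. That limit did not choose the groups described: Leu-CAG and Val-TAC fell below it. Gly-CCC (2 of 5 rows positive, median -0.03) and Asp-GTC (2 of 14, -0.15) passed it without being described. Below it, other groups had rows of 1 sign, such as His-GTG (10 of 10 positive) and Ile-AAT (0 of 8).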

Additional observations from a re-analysis of the deposited data

Results flagged for a closer look

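A value was listed here when 1 rat lay far from the other rats of its group by Dixon's criterion. This was so for 43 of 342 groups of values. The criterion's rate of about 1 in 20 holds for independent, normally distributed values. The values here were not log-transformed and many are related, so the count cannot be set against that rate. Air replicate 6 accounted for 13 of them, 0.4 ppm replicate 5 for 11, and 4 each fell on 0.4 ppm replicate 6, 0.4 ppm replicate 8 and air replicate 7. Air replicate 6 and 0.4 ppm replicates 5 and 6 have the fewest miRNA reads, and 0.4 ppm replicate 8 has the most. Among whole-library measures, the first principal component of the miRNA table put air replicate 6 at 7.27 (next rat 0.593) and 0.4 ppm replicate 5 at 20.3 (next 5.90). For 0.4 ppm replicate 6 the first component was 177.8 in the piRNA table (next 41.6) and 19.1 in the Ensembl table (next 2.20), and its share of piRNA signal in the top 10 rows was the lowest at 16.3% (next 20.4%).

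In air replicate 6 the germ-cell family miR-34/miR-449 had its lowest air share, 30.8% (next 42.9%), with miR-34b-5p at 6517 (next 11800). The same rat had the highest air share of the leukocyte list at 4.81% and of the miR-10 family at 7.91%. Its normalised values were also the highest in air for miR-10a-5p at 49511, miR-146b-5p at 30783, let-7a-5p at 20439, let-7f-5p at 15541, miR-146a-5p at 994.2, miR-125b-2-3p at 443.7, Stat2 at 42979 and tRX-Gly-NNN-90-1 at 25446.

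At 0.4 ppm, replicate 5 was the highest rat for miR-10a-5p at 71043, miR-99b-5p at 3660, miR-92a-3p at 930.2, miR-125b-2-3p at 633.7, miR-96-5p at 10.1, tRNA-Leu-TAG-1-1 at 1720, tRNA-Trp-CCA-1-1 at 27.8, piR-rno-285206 at 15.0, Epb41l2 at 35.5 and Synpo2 at 7.54. miR-141-3p was highest in replicate 6, at 9112 (next 5039). Replicate 8 was highest for miR-34c-3p at 3766, miR-19b-3p at 2600, piR-rno-1361373 at 12.7 and piR-rno-227431 at 0.794. Replicate 2 was highest for miR-200c-3p at 824.1 and Pcdhga7 at 26995, replicate 4 for Olr1568 at 50546 and replicate 1 for miR-27b-3p at 1350.

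Among the other air rats, replicate 7 was highest for the share of Lcn5 at 0.114%, the share of Val-CAC at 1.59% and tRNA-Val-CAC-1-1 at 1136, and lowest for miR-30d-5p at 13939.5 (next 16027). Replicate 1 was highest for miR-195-5p at 45.5, replicate 2 for miR-434-3p at 51.0 and replicate 5 for Pnma2 at 21.5.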

How the results depend on the processing

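limma called 0 features in each table under each alternative run, with these exceptions. Weighting libraries by quality gave 2 miRNAs (miR-3590-5p and miR-429), and leaving out 1 rat at a time gave 0 to 2 piRNA rows. Of 3413 values of 126 named features under alternatives, 3408 stayed on the same side of the threshold and 5 moved past it; 43 features changed sign at least once, 39 of them with a log2 fold change under 0.3 in size. Of 64 lists, 34 kept the sign of their median throughout. All 245 alternative values of the library measures stayed above the threshold.

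The share of tested features with an interval inside 2-fold depended on scale and filter. A pseudocount of 5 gave 94.1% of miRNAs, 69.1% of piRNA rows and 84.6% of transcripts. A filter at a mean of at least 10, which left fewer features to test, took the miRNA table from 57.7% to 75.3%. The other tables changed little under that filter, to 48.9% (Ensembl), 33.4% (piRNA) and 90.7% (tRNA). Equal library totals lowered the share to 23.5% in the Ensembl table, 42.0% in the miRNA table and 74.7% in the tRNA table. They raised it to 84.3% in the piRNA table. Removal of repeated rows left 21.0% of piRNA rows with such an interval, and summing by anticodon 96.4% of tRNA groups. A larger pseudocount or smaller values narrow intervals of low features by construction; the cause of the other shifts was not tested.

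The share of features with the larger spread at 0.4 ppm was 83.7% of miRNAs, 87.9% of piRNA rows and 90.9% of transcripts at a mean of at least 100, and 64.9% of piRNA rows with equal library totals. Without the 3 shallowest libraries it was 70.7% for tRNA, 61.7% for piRNA and 59.6% for transcripts. With 1 rat left out at a time it ran from 67.8% to 80.3% for miRNAs, 74.0% to 86.8% for tRNA rows, 63.0% to 75.3% for piRNA rows and 61.9% to 74.1% for transcripts.

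Counts at an unadjusted p under 0.05 fell without the 3 shallowest libraries to 13 miRNAs, 5 tRNA rows and 12 transcripts, and with library weights were 40, 31 and 39. No paired analysis was possible because the labels give no replicate numbers, and the numbers used here only name a rat within its group. Depth limits the rare miRNAs, and that behind piRNA and Ensembl values is unknown.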
